A study of Mus musculus with 686 samples.

Results

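The 6 microRNAs mmu-miR-124-3p, mmu-miR-9-5p, mmu-miR-9-3p, mmu-miR-128-3p, mmu-miR-137-3p and mmu-miR-129-5p (mmu marks mouse and is left out from here on) are strands of hairpins known for their expression in neurons. They were taken by name from the table of miRNA counts, where they are 6 of 1964 listed mature miRNAs, by a rule that names them and sets no limit on any measured value. Their levels are given as counts per 1000000 miRNA counts of a library (CPM), over 686 small RNA libraries from 13 mouse tissues, of which 25 are brain. All mice were female BALB/cAnNTac fed NASA food bars. The flight mice (FL) lived on the International Space Station, habitat ground controls (HGC) lived in the same hardware under matched temperature, humidity and CO2, and vivarium ground controls (VGC) lived in standard cages. Mold was found before launch on the food bars of FL and HGC mice, and how far it affected either group is not known. The Live Animal Return mice (LAR) spent 39.5 days on the station, or the matching time on the ground, and were killed 2 to 4 days after splashdown, with tissues frozen at dissection. The ISS Terminal mice (TERM) were killed 22 to 24 days after launch, and apart from the spleen their tissues were taken later from carcasses that had been frozen whole and thawed. The brain samples were whole hemi-brains, so neurons, glia and blood vessels were measured together. In LAR they came from 4 FL, 4 HGC and 4 VGC mice, all aged 3 months. In TERM they came from 4 FL, 5 HGC and 4 VGC mice, of which 2, 3 and 3 were aged 3 months and 2, 2 and 1 were aged 8 months. The other tissues came from mice of both ages, with 170 libraries of 3 months and 166 of 8 months in LAR and 168 and 157 in TERM.

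A microRNA is cut from a hairpin precursor, and either strand of the hairpin can be loaded into an Argonaute protein, where bases 2 to 8 (the seed) pair with target mRNAs and lower their output. miR-124 is the classic miRNA of differentiated neurons and represses genes of non-neuronal cells, while miR-9 acts in neural progenitors and in neurons and is unusual in that both strands are used. miR-128 restrains neuronal excitability, miR-137 acts in neuronal maturation and at synapses, and miR-129-5p regulates the translation of ion channel mRNAs in dendrites.

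Mature sequences from RefSeq (GRCm38.p6) were found for 5 of the 6 miRNAs and for the -3p strand of 1 of the hairpins of miR-129, which exceeded its -5p partner in brain. They are shown so that the seeds can be compared, and no sequence was found for miR-124-3p. The sequences run 5′ to 3′, and capitals mark the seed. The 5 seeds of the listed miRNAs are all different, and each was found in no other name among 1679 mature miRNAs of the same source.
miR-9-5p: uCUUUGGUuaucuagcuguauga
miR-9-3p: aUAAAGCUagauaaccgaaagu
miR-128-3p: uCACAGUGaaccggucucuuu
miR-137-3p: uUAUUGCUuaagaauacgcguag
miR-129-5p: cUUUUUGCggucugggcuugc
miR-129-2-3p: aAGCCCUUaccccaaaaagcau

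The hairpins of miR-9, miR-128, miR-137 and miR-129 lie on 7 chromosomes in that build (GRCm38.p6, gene models of GENCODE). miR-9 has 3 hairpins, all on the plus strand. Mir9-1 (chr3:88215598-88215686) is in an intron of the lincRNA Gm3764, Mir9-3 (chr7:79505264-79505353) in an intron of the lincRNA Mir9-3hg, and Mir9-2 (chr13:83738814-83738885) in the lincRNA C130071C03Rik, exonic in 2 of its 3 transcripts. Both hairpins of miR-128 are in introns of protein-coding genes. Mir128-1 (chr1:128202361-128202430, plus strand) lies in R3hdm1, and Mir128-2 (chr9:112118636-112118711, minus strand) in Arpp21. Mir137 (chr3:118433857-118433929, plus strand) overlaps an exon of the noncoding transcript Gm26871. Mir129-1 (chr6:29022619-29022691, plus strand) overlaps an exon of the lincRNA Gm3294, and Mir129-2 (chr2:94241364-94241453, minus strand) lies in an intron of the lincRNA Mir670hg, with Mir129b annotated on the opposite strand. Copies with the same mature strand share their counts, so no level could be given per hairpin for miR-9-5p, miR-9-3p, miR-128-3p or miR-129-5p.

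The brain libraries held 0.598 to 10.0 M miRNA counts (M, 1000000 counts), with a median of 6.56 M, and 24 of them held at least 3.03 M. The 661 other libraries held 0.181 to 30.5 M (median 3.82 M). All 25 brain libraries had a miRNA profile, taken over 718 miRNAs without the 6 described here, closest to that of brain, and the oligodendrocyte miRNAs miR-219a-2-3p (891 to 4382 CPM) and miR-338-3p (592 to 6059 CPM) were present in every one. In 4 brain libraries the correlation with the brain profile was below 0.9, against a median of 0.971. In VGC LAR mouse 5 (r = 0.728), FL TERM mouse 17 (0.841) and HGC TERM mouse 18 (0.885), 4 miRNAs of muscle (miR-1a-3p, miR-133a-3p, miR-206-3p, miR-208a-3p) summed to 47011, 27299 and 13797 CPM, against 1594 to 4181 CPM in the 21 brain libraries that did not stand apart. HGC TERM mouse 18 also held 28252 CPM of the liver miRNA miR-122-5p, and VGC TERM mouse 7, which did not stand apart by its profile, held 18053 CPM, against a brain median of 73.4 CPM. FL LAR mouse 13 held 4417 CPM of it and FL TERM mouse 17 3765 CPM. The epithelial miRNAs miR-200c-3p and miR-141-3p summed to 5077 CPM in VGC LAR mouse 5 and 4206 CPM in HGC LAR mouse 13. Their median was 132 CPM in the libraries that did not stand apart. VGC TERM mouse 8 (r = 0.785) was the library with 0.598 M counts. The libraries were sequenced in 44 pools, and in 11 pools more than 1 in 3 libraries had a profile nearest a tissue other than their label (called mismatched pools here, 168 libraries), 2 of them holding a brain library each (VGC LAR mouse 5 and FL TERM mouse 17).

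miR-124-3p was the most abundant of all miRNAs in brain, with a median of 179182 CPM or 17.9% of miRNA counts over the 25 libraries, and the 6 miRNAs together made up 8.34% to 31.3% of all miRNA counts (median 22.5%). miR-9-5p ranked 6 by its median (43972 CPM), miR-9-3p 30 (4393 CPM), miR-128-3p 46 (2420 CPM), miR-129-5p 48 (2176 CPM) and miR-137-3p 59 (1554 CPM). Such ranks compare shares of sequenced molecules of similar length, and adapter ligation, which favours some ends over others, was not corrected for. The summed share was lowest in VGC LAR mouse 5 (8.34%) and was 13.6% and 13.5% in FL TERM mouse 17 and HGC TERM mouse 18, the libraries with raised muscle miRNAs. Without the 4 libraries named above it ran from 16.9% to 31.3% (median 24.3%, 21 libraries). In a whole hemi-brain, a smaller share of neurons and less of a miRNA per neuron cannot be told apart.

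The spread between brain libraries differed widely among the 6. The coefficient of variation over all 25 was 31.3% for miR-124-3p and 31.1% for miR-9-5p, but 39.8% for miR-129-5p, 46.0% for miR-9-3p, 52.8% for miR-137-3p and 69.1% for miR-128-3p. Without the 4 libraries that stood apart it was 23.9% for miR-124-3p, 29.3% for miR-9-5p, 37.1% for miR-9-3p, 45.7% for miR-137-3p and 62.0% for miR-128-3p. The highest library exceeded the lowest 4.94-fold for miR-124-3p, or 2.72-fold without those 4. The fold was 4.09 for miR-9-5p in both sets, and 11.1 and 9.26 for miR-128-3p. Across libraries miR-124-3p and miR-128-3p rose and fell together (r = 0.73 over 25 libraries, 0.74 over 21 without those that stood apart). miR-124-3p and miR-137-3p gave 0.65 and 0.42. The strands of miR-9, by contrast, showed r = 0.21 over 25 and -0.07 over 21 libraries, and miR-128-3p and miR-129-5p -0.35 and -0.63. These correlations are descriptions over libraries that share the same total, in which a rise of one abundant miRNA lowers the share of the rest.

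The first question was whether the brain levels of these miRNAs differed between flight and ground. miR-124-3p in LAR brain was 225577, 244883, 200387 and 212412 CPM in FL mice 1, 5, 13 and 17. In HGC mice of the same numbers, which are other animals, it was 257657, 154103, 241584 and 179867 CPM. In VGC mice it was 105952, 52147, 170845 and 149237 CPM. All 4 FL libraries were above all 4 VGC libraries, and the HGC libraries overlapped both. In the FL vs. VGC contrast 0% of 1030 miRNAs passed the edgeR test, and 164 had an unadjusted edgeR p below 0.05. How many of the 1030 separated these groups fully was not counted, so the separation has no share to be set against. The fitted difference (edgeR quasi-likelihood test, log2 scale with 95% interval) was 0.59 for FL vs. VGC (-0.11 to 1.30, adjusted p = 0.346) and 0.09 for FL vs. HGC (-0.61 to 0.80, adjusted p = 1), neither past the threshold of 0.05. Each library is from a separate mouse, so these p-values measure the spread between the mice of 1 mission. Without VGC LAR mouse 5 the FL vs. VGC difference was 0.30 (-0.30 to 0.89, adjusted p = 0.682).

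miR-128-3p showed the widest arm difference in LAR brain. FL libraries held 6742, 8454, 4075 and 2420 CPM (mice 1, 5, 13 and 17), HGC libraries 8751, 3056, 2368 and 2108 CPM, and VGC libraries 945, 916, 2758 and 2049 CPM. FL mouse 17 fell below VGC mouse 13, so the FL and VGC groups overlapped. The log2 difference FL vs. VGC was 1.41 ± 0.48 (SE, interval 0.37 to 2.44), with an unadjusted p of 0.0110 and an edgeR adjusted p of 0.297. It was 1.14 (0.08 to 2.19, adjusted p = 0.546) without VGC LAR mouse 5, and its adjusted p ranged from 0.105 (DESeq2) to 0.546 over the alternatives tried. miR-128-3p was the only one of the 6 with an unadjusted p below 0.05 between arms in brain.

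The strands of miR-9 did not move alike in LAR brain. miR-9-5p was 43972, 47237, 51210 and 17345 CPM in FL, 35152, 47890, 41399 and 42543 CPM in HGC and 57737, 28138, 45351 and 46734 CPM in VGC. miR-9-3p was 5615, 8552, 5246 and 7478 CPM in FL, 5975, 4153, 4393 and 2535 CPM in HGC and 3974, 781, 2986 and 5773 CPM in VGC. FL mouse 17 was the lowest of the 12 in miR-9-5p and the second highest in miR-9-3p, and all groups overlapped for both strands. The FL vs. VGC difference was -0.51 (-1.34 to 0.31, adjusted p = 0.489) for miR-9-5p and 0.67 (-0.34 to 1.69, adjusted p = 0.460) for miR-9-3p.

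miR-137-3p was 2340, 1866, 3932 and 1088 CPM in FL, 4615, 2321, 3054 and 1412 CPM in HGC and 1538, 525, 1327 and 1163 CPM in VGC LAR brains. miR-129-5p was 2303, 1635, 2124 and 2704 CPM in FL, 634, 1802, 1938 and 3011 CPM in HGC and 2783, 872, 2085 and 3263 CPM in VGC. VGC mouse 5, one of the libraries with raised muscle miRNAs, was the lowest VGC library of both. HGC vs. VGC gave 0.93 (-0.05 to 1.91, edgeR p = 0.0616 before adjustment, which did not pass after it) for miR-137-3p, and FL vs. VGC gave -0.35 (-1.49 to 0.78, adjusted p = 0.735) for miR-129-5p.

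**Figure D1:**
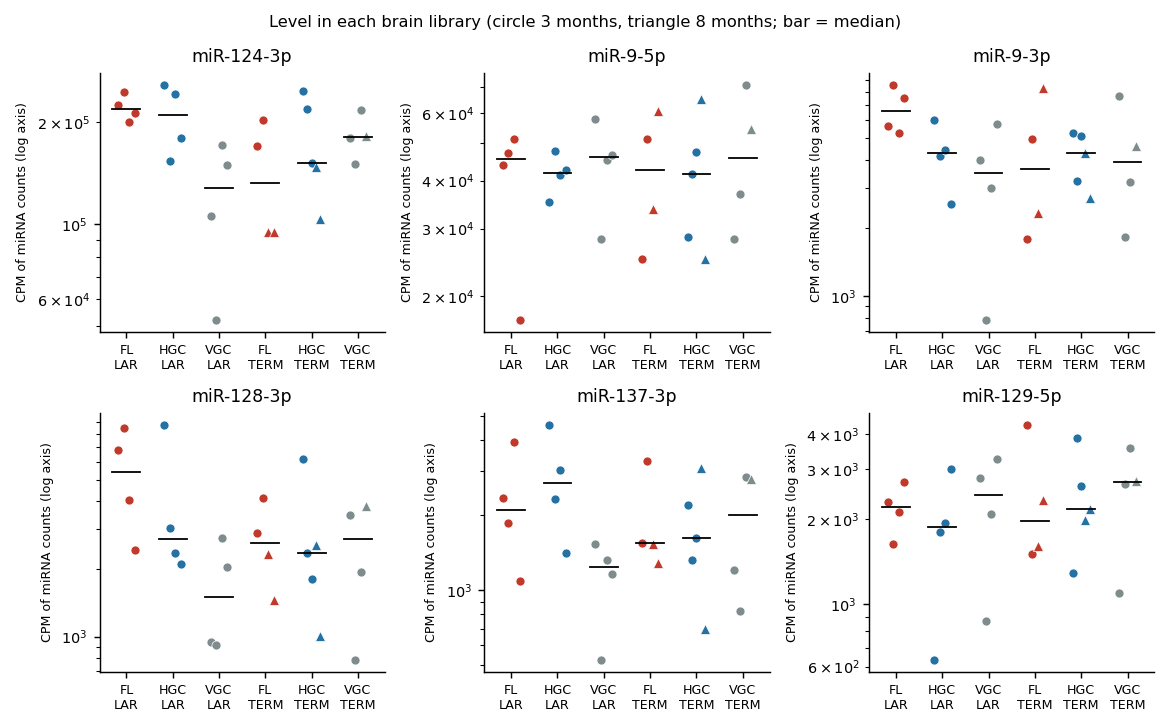
CPM (log axis) of the 6 miRNAs in each of the 25 brain libraries, by arm (FL red, HGC blue, VGC grey) and extraction; circles are mice of 3 months, triangles mice of 8 months, and bars are group medians. In LAR all 4 FL libraries lay above all 4 VGC libraries for miR-124-3p (200387 CPM or more against 170845 CPM or less), while the groups overlapped for miR-128-3p. How many of all miRNAs separated in this way was not counted.

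None of the 6 passed in any of the 3 arm contrasts of LAR brain. FL vs. HGC called 0 of the 6 and 0% of all 1030 miRNAs tested, FL vs. VGC 0 of 6 and 0%, and HGC vs. VGC 0 of 6 and 0%. At an unadjusted p below 0.05 there were 13, 164 and 96 miRNAs, and of the 6 there were 0, 1 and 0. DESeq2 called none of the 6 and 6 miRNAs in all. The median difference of the 6 for FL vs. VGC was 0.63 on the log2 scale, against -0.09 over all miRNAs tested, and 18 other brain-enriched miRNAs had a median of 0.52. For FL vs. HGC the medians were 0.12 for the 6, 0.16 for the 18 and 0.00 for all. The summed muscle miRNAs were 2071 to 3976 CPM in FL, 1635 to 3646 CPM in HGC and 2218 to 47011 CPM in VGC, the highest being VGC mouse 5. Without that library 4 of the 6 miRNAs were still higher in FL than in VGC and 2 lower, with 0.30 for miR-9-3p, 0.38 for miR-137-3p, -0.74 for miR-9-5p and -0.66 for miR-129-5p.

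The same arms were compared in TERM brain. miR-124-3p was 170174 and 203190 CPM in FL at 3 months (mice 7 and 8) and 94834 and 94695 CPM at 8 months (mice 17 and 18). In HGC it was 247694, 218763 and 152025 CPM at 3 months and 147245 and 103629 CPM at 8 months. In VGC it was 179182, 150174 and 217559 CPM at 3 months and 182350 CPM at 8 months. The arms overlapped at 3 months, and at 8 months the FL libraries were the lowest, with 2, 2 and 1 libraries. With age as a covariate the difference was -0.31 (-0.92 to 0.30, adjusted p = 0.999) for FL vs. HGC and -0.36 ± 0.31 (SE, adjusted p = 0.997) for FL vs. VGC.

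The other 5 miRNAs spanned wide ranges in TERM brain. miR-9-5p ran from 25060 to 60676 CPM in FL, from 25045 to 65179 CPM in HGC and from 28242 to 71009 CPM in VGC. miR-9-3p was 1781, 4924, 2327 and 8333 CPM in FL, and miR-128-3p was 2906, 4138, 2339 and 1462 CPM (mice 7, 8, 17 and 18). Groups overlapped for each of the 6 in every TERM contrast. FL vs. HGC called 0 of 6 (0% of 1008 miRNAs), FL vs. VGC 0 of 6 (0%) and HGC vs. VGC 0 of 6 (0%) by edgeR, with 14, 52 and 42 miRNAs but none of the 6 at an unadjusted p below 0.05. DESeq2 called 0 of the 6 and 5 miRNAs in all. The fitted differences of the 5 lay between -0.27 (miR-9-5p, FL vs. VGC) and 0.14 (miR-128-3p, FL vs. VGC). The interval for miR-9-5p was -1.23 to 0.70, so a fall of 1 log2 unit lay within it.

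Whether the FL vs. HGC difference changed between TERM and LAR was tested as an interaction over the 20 brain libraries of mice aged 3 months. It called 0 of the 6 and 0% of 1065 miRNAs (22 miRNAs, none of the 6, at an unadjusted p below 0.05). The widest values were -1.16 (-2.83 to 0.51) for miR-9-3p, with an edgeR p of 0.165, and 0.75 (-0.81 to 2.31) for miR-137-3p. FL mice of LAR also went through the return to Earth and those of TERM did not, which cannot be told apart from the longer flight.

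Age could be compared in TERM brain alone. miR-124-3p was 150174 to 247694 CPM (median 191186) in 8 mice of 3 months and 94695, 94834, 103629, 147245 and 182350 CPM in 5 mice of 8 months. The first 4 of these lay below every younger library, and the VGC library did not. The difference between 8 and 3 months, with arm as a covariate, was -0.50 ± 0.25 (SE, interval -1.03 to 0.03) with an unadjusted p of 0.0615 and an adjusted p of 0.564 in edgeR. Leaving out each library in turn gave -0.63 to -0.40. DESeq2 gave -0.51 with an adjusted p of 0.0240, and called 17 of 997 miRNAs (1.71%), of which miR-124-3p was 1. Without FL TERM mouse 17, HGC TERM mouse 18 and VGC TERM mouse 8 the edgeR difference was -0.33 (-1.02 to 0.36, adjusted p = 0.915). The summed muscle miRNAs of the 2 older libraries among these are given above, and their part in the result was not tested. miR-9-5p had medians of 39281 CPM at 3 and 54529 CPM at 8 months (0.34, -0.43 to 1.12, adjusted p = 0.872), and the other 4 lay between -0.25 and 0.24. By edgeR 0 of the 6 and 0% of 1008 miRNAs passed for age, with 94 miRNAs and none of the 6 at an unadjusted p below 0.05.

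None of the 6 passed between TERM and LAR brains of 3 months. The log2 difference TERM minus LAR was 0.06 (-0.35 to 0.46) for miR-124-3p, -0.11 (-0.62 to 0.39) for miR-9-5p, -0.24 (-0.91 to 0.44) for miR-9-3p, -0.28 (-0.94 to 0.38) for miR-128-3p, -0.15 (-0.78 to 0.47) for miR-137-3p and 0.22 (-0.47 to 0.92) for miR-129-5p. edgeR called 0 of the 6 (adjusted p from 0.921 to 0.952, none at an unadjusted p below 0.05) and 8 of 1065 miRNAs (0.751%), and DESeq2 called 0 of the 6. Scaled to the counts over 6 RNA classes the differences were all negative, at -0.40 for miR-124-3p, -0.53 for miR-9-5p, -0.71 for miR-9-3p, -0.79 for miR-128-3p, -0.55 for miR-137-3p and -0.22 for miR-129-5p (edgeR adjusted p from 0.266 to 0.693), where the median over all miRNAs shifted by -0.60. Time since launch, the return of FL mice to Earth with the days after it, the whole-carcass freezing and the anaesthetic go with the extraction and cannot be told apart.

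**Figure D2:**
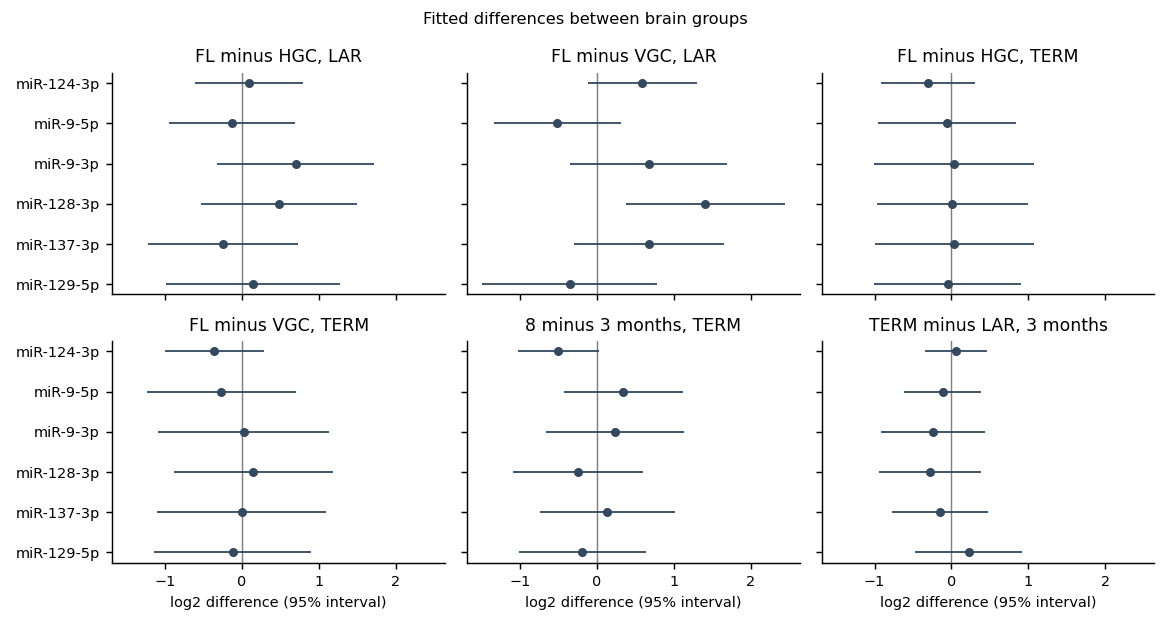
Fitted log2 differences with 95% intervals of the 6 miRNAs in brain, for FL against each control group within each extraction, for 8 against 3 months, and for TERM against LAR at 3 months. Of all intervals drawn, only that of miR-128-3p for FL vs. VGC in LAR (0.37 to 2.44) leaves out 0, and its adjusted p was 0.297.

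The hairpins differed in which strand was counted. The ratio of the strands needs no library size. miR-124-3p exceeded miR-124-5p by a median of 2562-fold in brain (1318 to 25679, n = 25), with miR-124-5p at a median of 70.0 CPM. The highest ratio is from VGC TERM mouse 8 with 3 counts of miR-124-5p, and the next was 7251-fold. miR-128-3p exceeded the summed -5p strands of its 2 hairpins 367-fold (24.2 to 1070), and miR-137-3p exceeded miR-137-5p 93.5-fold (35.3 to 445, apart from VGC TERM mouse 8 with 0 counts of miR-137-5p). For these 3 hairpins 1 strand made up nearly all counts in every brain library. miR-9 was used on both sides, with miR-9-5p 10.5-fold above miR-9-3p (2.32 to 36.0). miR-129 was the reverse of its naming in this list, since miR-129-5p was 0.188 of the summed miR-129-1-3p and miR-129-2-3p (0.0450 to 1.42) and exceeded them in 1 of 25 libraries, VGC TERM mouse 8 of low depth. miR-129-2-3p, printed above, had a median of 10076 CPM and ranked 18 in brain.

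The miR-9 strand ratio was 2.32 to 9.76 (median 6.58) in FL LAR, 5.88 to 16.8 (10.4) in HGC LAR and 8.09 to 36.0 (14.9) in VGC LAR. The lowest was FL mouse 17 and the highest VGC mouse 5, and the FL and VGC groups overlapped. On the log2 scale FL was lower than VGC by a mean difference of -1.51 (exact permutation test, 2-sided, p = 0.0571, adjusted p = 0.667 over 35 comparisons of ratio and contrast), and by -1.12 without VGC mouse 5. The miR-124 ratio in TERM gave -0.57 for FL vs. HGC (exact permutation p = 0.0397) and -1.38 for FL vs. VGC (exact permutation p = 0.0571), both with an adjusted p of 0.667. The latter was -0.60 without VGC TERM mouse 8 and its 3 counts of miR-124-5p, and the former -0.38 without FL TERM mouse 17. None of the 35 comparisons passed, and with 4 against 4 libraries the smallest p an exact test can give is 0.0286.

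**Figure D3:**
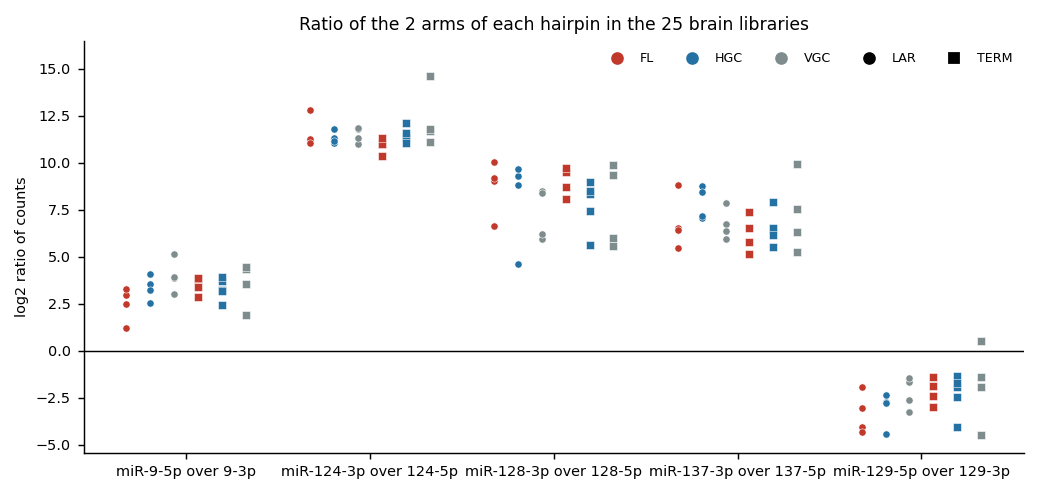
Log2 ratio of the 2 strands of each hairpin (or summed hairpins of a family) in the 25 brain libraries, coloured by arm, with circles for LAR and squares for TERM. The medians correspond to 2562-fold for miR-124-3p over -5p, 10.5-fold for miR-9-5p over -3p and 0.188 for miR-129-5p over -3p, and the arms overlap for every hairpin.

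In other tissues the strand ratio of miR-9 was close to that of brain (median 12.2 over 661 libraries, by tissue from 8.42 in pancreas to 18.5 in heart). That of miR-129 was 0.329, with miR-129-5p the higher strand in 35 of 661 libraries. The ratios of miR-124 (347), miR-128 (78) and miR-137 (45) over all other tissues were lower than in brain. By tissue, that of miR-128 reached 445 in thymus and that of miR-137 reached 218 in liver, above their brain medians. miR-124-5p was at 0 counts in 556 of 661 libraries, miR-137-5p in 472, miR-128-1-5p in 319 and miR-128-2-5p in 584, and a ratio over a count of 0 is set by the 0.5 added.

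The second question was how far these miRNAs mark brain. All 6 were higher in brain than in the mean of the 12 other tissues in both extractions (edgeR quasi-likelihood test with arm as a covariate, adjusted p at most 8.00e-48), where 39.2% of 1353 miRNAs in LAR and 37.6% of 1347 in TERM were called higher in brain. The log2 difference in LAR was 9.12 ± 0.41 (SE) for miR-124-3p, 8.02 ± 0.30 for miR-9-3p, 7.53 ± 0.30 for miR-9-5p, 6.71 ± 0.26 for miR-137-3p, 6.23 ± 0.20 for miR-129-5p and 6.23 ± 0.20 for miR-128-3p. In TERM it ran from 5.41 ± 0.24 for miR-128-3p to 8.69 ± 0.50 for miR-124-3p. The median of the 6 was 7.12 in LAR and 7.05 in TERM, against 0.02 and 0.06 over all miRNAs tested. The 18 other brain-enriched miRNAs, which were chosen for that property, were all higher too, with medians of 5.98 and 5.92. Libraries of 1 mouse entered these fits as independent, so their p-values are too small. Age was no covariate in them, although LAR brain held mice of 3 months only. With mice of 3 months alone, a set chosen after the values were seen, all 6 were again higher, by 6.22 for miR-128-3p to 9.59 for miR-124-3p in LAR and by 5.61 to 8.99 for these in TERM (edgeR).

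Each of the 12 tissues also lay below brain on its own for each of the 6, but the nearest tissue differed by miRNA. For miR-128-3p it was thymus, 2.92 ± 0.41 below brain in LAR and 1.35 ± 0.44 in TERM (edgeR adjusted p = 0.00430). With mice of 3 months alone it was 2.79 ± 0.47 below in LAR and 1.03 ± 0.52 in TERM, where the difference did not pass (edgeR adjusted p = 0.0689). For miR-137-3p it was liver, by 2.76 in LAR and 3.04 in TERM. For miR-9-5p it was kidney (5.41 in LAR), for miR-129-5p brown adipose tissue (BAT, 4.25 in LAR) and for miR-124-3p pancreas (5.80 in LAR). With mice of 3 months alone pancreas was 8.06 below brain in LAR and heart was the nearest, at 6.21, and whether age changed these differences was not tested. Taking the other tissues only from pools that held no brain library raised the brain difference of miR-124-3p to 11.41 in LAR and 9.64 in TERM.

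The order of tissue medians in LAR shows these second places. miR-124-3p was at 190127 CPM in brain, 183 CPM in pancreas, 79.7 CPM in mesenteric adipose tissue (MAT) and 60.0 CPM in spleen, followed by BAT (59.9), thymus (57.7), heart (49.5), liver (46.9), subcutaneous adipose tissue (SCAT, 35.3), gonadal adipose tissue (GAT, 35.0), diaphragm (28.7), lung (26.6) and kidney (11.9). Of its 12 pairs of neighbours only brain and pancreas differed. Over all 6 miRNAs 15 of 72 neighbouring pairs differed (permutation test, 100000 resamples, 2-sided, adjusted over the 72). Among them were brain and the next tissue for all 6 (permutation test, adjusted p = 0.000103, from the smallest p the resamples can give). All 15 went in the order of the medians. That order was taken from the same LAR libraries that were tested, so the shared direction is no separate evidence for it.

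miR-9-5p had its second place in kidney, at a median of 1238 CPM (21.3 to 1718) in LAR and 963 CPM in TERM. Next came MAT at 178 CPM, pancreas at 133 CPM and heart at 123 CPM in LAR, and liver was last at 18.8 CPM. Kidney differed from MAT (permutation test, adjusted p = 0.00027), and no pair from MAT to liver differed. Without mismatched pools, MAT differed from pancreas and thymus from BAT as well (permutation test, adjusted p = 0.00235 and 0.000111). Scaled to the counts over 6 RNA classes, part of this order turned. Pancreas was then lower than heart by a log2 difference of -1.89 (permutation test, adjusted p = 0.00229) and GAT lower than lung by one of -1.35 (adjusted p = 0.00024). Spleen was then above SCAT by 1.25 (adjusted p = 0.000455), a pair that did not pass by CPM (0.63, permutation test, adjusted p = 0.284). miR-9-3p followed a similar order at lower levels, from 64.5 CPM in kidney and 14.8 CPM in MAT (adjusted p = 0.00295) to 1.25 CPM in liver. The kidney medians were much the same in pools with and without a brain library (miR-9-5p 1180 and 1241 CPM in LAR, 1021 and 957 CPM in TERM).

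miR-128-3p had a median of 429 CPM (10.9 to 1081) in LAR thymus and of 801 CPM (13.5 to 3189) in TERM thymus. The thymus range thus overlapped that of brain, which was 945 to 8751 CPM without the libraries that stood apart. Spleen came next at 35.5 CPM in LAR (permutation test, adjusted p = 0.000103 for thymus against spleen), and liver was last at 10.1 CPM. The order below thymus depended on the scaling, since over 6 RNA classes 9 of the 12 neighbouring pairs of miR-128-3p differed, against 3 by CPM, and 3 of the 9 in the reverse order. GAT was then below liver by a log2 difference of -0.78 (permutation test, adjusted p = 0.00108), so liver was no longer last. miR-137-3p stood at 202 CPM (3.74 to 443) in LAR liver and 136 CPM in TERM liver, ahead of MAT at 34.5 CPM (adjusted p = 0.00032) and diaphragm, the lowest, at 1.39 CPM. The thymus median of miR-128-3p was 416 CPM in LAR pools with a brain library and 441 CPM in those without, and 1051 and 555 CPM in TERM. The liver median of miR-137-3p was 233 and 155 CPM in LAR and 140 and 126 CPM in TERM.

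For miR-129-5p BAT came next after brain, and whether it exceeded pancreas depended on the scaling. BAT (58.1 CPM), pancreas (56.2), SCAT (37.6) and MAT (36.2) did not differ between neighbours in LAR, MAT differed from kidney (25.6 CPM, permutation test, adjusted p = 0.00310), and thymus (23.7 CPM) from heart (8.00 CPM, adjusted p = 0.0128). Liver (4.85 CPM) and lung (4.37 CPM) were lowest. Scaled to the counts over 6 RNA classes, BAT exceeded pancreas by 1.37 on the log2 scale (permutation test, adjusted p = 0.000169). In that scaling the difference of MAT from kidney was -0.44 (permutation test, adjusted p = 0.0784) and that of thymus from heart 0.34 (adjusted p = 0.363), and neither passed.

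**Figure D4:**
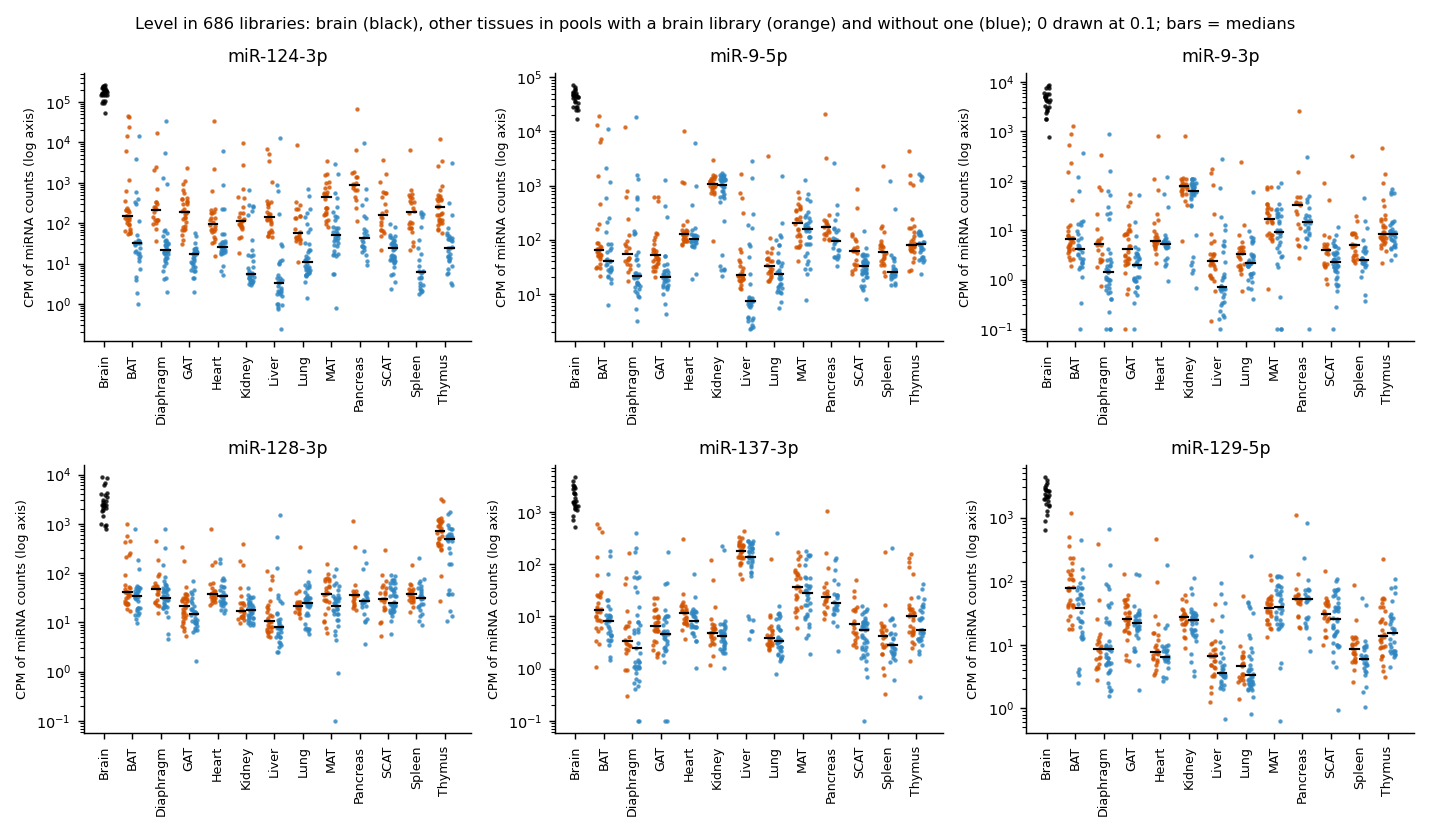
CPM (log axis) of the 6 miRNAs in all 686 libraries by tissue; brain in black, other tissues in orange where their pool also held a brain library and in blue where it did not, values of 0 drawn at 0.1 and bars at medians. The second places are kidney for miR-9-5p (LAR median 1238 CPM), thymus for miR-128-3p (429 CPM) and liver for miR-137-3p (202 CPM).

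Outside brain the miRNAs had counts in nearly every library, mostly at a small part of the brain level. Kidney, thymus and liver held more of single ones, as given above. For miR-128-3p 22 libraries lay above the lowest brain library, with up to 3189 CPM in TERM thymus, against 1 to 6 libraries for the other miRNAs. miR-124-3p, miR-9-5p and miR-129-5p had counts in all 661, miR-128-3p was at 0 in 1, miR-137-3p in 5 and miR-9-3p in 12. The median level outside brain was 0.0296% of the brain median for miR-124-3p, 0.112% for miR-9-3p, 0.140% for miR-9-5p, 0.484% for miR-137-3p, 0.800% for miR-129-5p and 1.19% for miR-128-3p. The most abundant miRNA of brain thus had the smallest median elsewhere relative to its level in brain.

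The trace of miR-124-3p differed by sequencing pool. Its median was 174 CPM in 286 non-brain libraries whose pool also held a brain library and 19.5 CPM in 375 whose pool did not, 8.89-fold apart. As shares of the brain median these are 0.0969% and 0.0109%. The same fold was 1.87 for miR-9-5p, 1.87 for miR-9-3p, 1.24 for miR-128-3p and 1.23 for miR-129-5p, and miR-124-3p, with the highest level in brain, had the widest gap. For miR-137-3p the medians were 9.68 and 6.43 CPM. Over pools, after subtracting each tissue's median, 20 pools with a brain library exceeded 24 without by 3.15 on the log2 scale for miR-124-3p (permutation test, 100000 resamples, p = 1e-05, the smallest these can give, adjusted p = 6e-05). The difference was 0.86 for miR-9-5p (adjusted p = 0.00536), 0.78 for miR-9-3p (0.00336), 0.47 for miR-128-3p (0.0178), 0.45 for miR-137-3p (0.0225) and 0.26 for miR-129-5p (0.0983). Without mismatched pools (18 against 15) it was 3.39 for miR-124-3p and 0.31 for miR-129-5p (permutation test, adjusted p = 0.00066).

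The pool median of miR-124-3p was 34.7 to 2111 CPM (median 146) in the 20 pools with a brain library and 5.51 to 2847 CPM (median 18.3) in the 24 without. In the 15 of these that were not mismatched it was 7.55 to 34.9 CPM, so the high values among pools without a brain library all came from mismatched pools. The second place of pancreas for miR-124-3p moved with the pool as well. Its LAR pancreas median was 825 CPM in pools with a brain library and 40.8 CPM in those without, and in TERM 954 and 45.1 CPM.

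**Figure D5:**
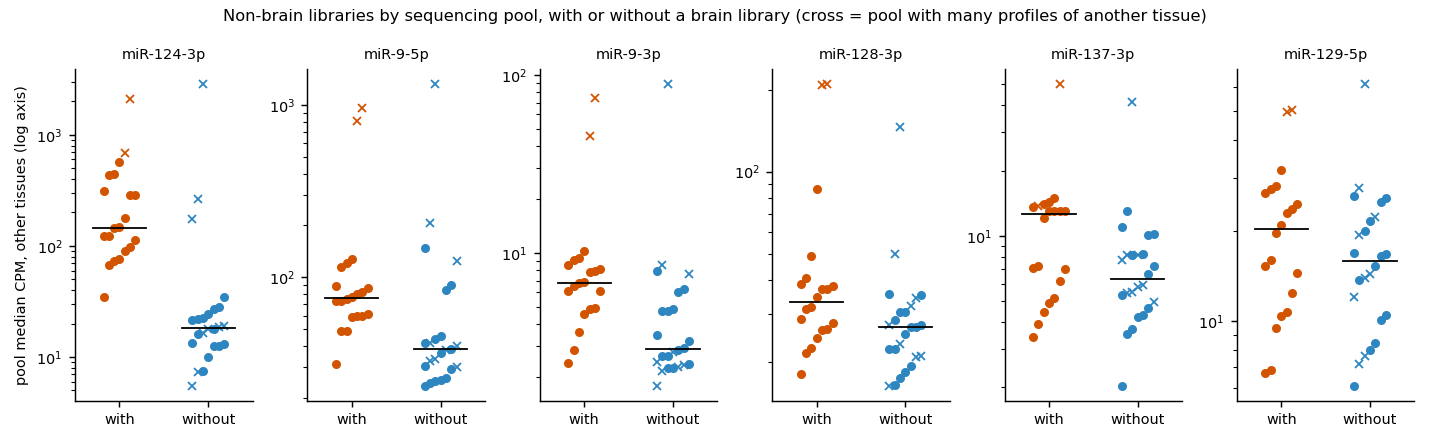
Pool medians of CPM (log axis) of non-brain libraries for the 6 miRNAs, in pools with and without a brain library; crosses are mismatched pools and lines are medians. For miR-124-3p the medians were 146 and 18.3 CPM, and apart from mismatched pools the ranges met only between 34.7 and 34.9 CPM.

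In 9 libraries labelled as another tissue (4 BAT, 2 diaphragm, 2 heart and 1 pancreas) the profile without the 6 miRNAs was nearest that of brain. They held 6099 to 68015 CPM of miR-124-3p (median 34284), 6119 to 21401 CPM of miR-9-5p (11851), 120 to 2540 CPM of miR-9-3p (797) and 187 to 1140 CPM of miR-128-3p (562). The highest of the 9, the pancreas library FL LAR mouse 3, lay below the 94695 CPM of the lowest brain library that did not stand apart, and above VGC LAR mouse 5 alone (52147 CPM). Their ratio of miR-124-3p to miR-9-5p had a median of 2.14, against 3.95 in brain, 2.49 in other libraries of pools with a brain library and 0.504 in those of pools without. For miR-124-3p to miR-137-3p the same medians were 91.1, 96.4, 22.4 and 2.80, and for miR-124-3p to miR-128-3p 43.1, 58.6, 6.07 and 0.670. Among libraries without a brain neighbour in the pool, the proportions of the 6 were thus far from those of brain, and miR-9-5p was the higher of the pair in the median library.

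Arm differences outside brain were counted over 12 tissues and 3 contrasts. In LAR 10 of 216 tests of the 6 passed in edgeR (5 higher and 5 lower in the first-named arm), where 0.892% of all 34404 tests were called. In TERM 10 of 216 passed (9 higher, 1 lower) against 0.461% of 34050. By miRNA, miR-9-5p had 6 of the 20 calls, miR-9-3p 5, miR-137-3p 4, miR-124-3p 3, miR-129-5p 2 and miR-128-3p 0. DESeq2 called 8 in LAR, where it called 1.31% of all 34122 tests, and 14 in TERM against 0.642% of 33978. Of these 8 and 14, 3 and 6 were among the edgeR calls. Without the highest library of the groups compared, 0 of the 10 in LAR and 0 of the 10 in TERM passed. Leaving out the highest value narrows a difference by construction, so the values with and without it are given side by side.

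For 14 of the 20 calls the highest library lay in a mismatched pool and had a profile nearest another tissue than its label. In BAT, HGC LAR mouse 12 held 44637 CPM of miR-124-3p with the next library at 208 CPM, and FL vs. HGC was -6.28 with it and -0.68 without it. Its profile was nearest brain. In LAR pancreas, FL mouse 3, also nearest brain, held 21401 CPM of miR-9-5p with the next at 3193 CPM, and FL vs. VGC was 4.33 with it and 1.97 without it (edgeR adjusted p = 0.291). In TERM heart, FL mouse 1, nearest brain, held 6099 CPM of miR-124-3p with the next at 2185 CPM, and FL vs. VGC was 4.01 and 2.58 (adjusted p = 0.145).

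Of the 4 calls of miR-137-3p, 3 had a highest library with a liver profile, and the fourth was that of LAR pancreas FL mouse 3. The highest libraries in LAR GAT (VGC mouse 4, 175 CPM, next 44.1 CPM), LAR kidney (VGC mouse 4, 226 CPM, next 7.14 CPM) and TERM lung (HGC mouse 5, 388 CPM, next 16.2 CPM) all had a profile nearest liver. The differences moved from -3.13 to -0.93, from -2.77 to -0.40 and from -4.07 to -0.26 without them. In LAR lung, VGC mouse 3 was nearest pancreas and held 3542 CPM of miR-9-5p, with the next library at 44.6 CPM.

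Liver was the exception, since its highest libraries had the profile of liver and were not in mismatched pools. In LAR liver miR-9-5p differed by 4.38 for FL vs. HGC and miR-9-3p by 4.73, and without the highest library by 3.34 (edgeR adjusted p = 0.0661) and 3.81 (adjusted p = 0.0510). DESeq2 gave 4.42 and 4.74 over all libraries (adjusted p = 5.91e-05 and 6.04e-05). Without mismatched pools edgeR gave 4.60 and 4.98 (adjusted p = 0.0504 and 0.0600), and in pools without a brain library 2.62 and 2.08 (adjusted p = 0.440 and 0.567). The highest of miR-9-5p was FL mouse 16 with 1615 CPM, the next 577 CPM, in a pool with a brain library, and 6 of 10 FL but 3 of 9 HGC livers were in such pools. In TERM liver FL mouse 1 held 12850 CPM of miR-124-3p and 2790 CPM of miR-9-5p, with the next libraries at 3487 and 717 CPM, in a pool without a brain library. FL vs. VGC was 5.76 for miR-124-3p with it and 3.96 without it (adjusted p = 0.0818), and 4.40 and 2.48 for miR-9-5p (adjusted p = 0.0890). DESeq2 over all libraries gave 3.78 (adjusted p = 0.0568) for miR-124-3p and 2.23 (adjusted p = 0.0857) for miR-9-5p, which did not pass. For the other calls of this contrast it gave 1.86 (adjusted p = 0.367) for miR-9-3p and 2.21 (adjusted p = 0.00879) for miR-129-5p, of which the latter passed.

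Fewer of these tests passed in restricted sets of libraries. Without mismatched pools 0 of 216 passed in LAR, where 0.197% of all tests were called, and 2 of 216 in TERM (0.0131%). In pools without a brain library, a set chosen after the values were seen, 0 of 216 passed in LAR (0.15%) and 2 of 216 in TERM (0.452%). None of these calls was among the 20 above. The lost calls do not show that the differences were absent there. Without mismatched pools 2 of the 10 LAR differences and 2 of the 10 TERM differences were at least as large as over all libraries, and in pools without a brain library 2 and 8 of 10. Without mismatched pools 6 in LAR and 4 in TERM kept their direction at less than 1/2 of their size, and 2 and 1 changed direction. In pools without a brain library 5 in LAR and 0 in TERM fell below 1/2, and 1 and 0 changed direction. In TERM liver FL vs. VGC was 5.62 for miR-124-3p and 4.62 for miR-9-5p without mismatched pools (edgeR adjusted p = 0.0916 and 0.0753), and 8.94 and 5.33 in pools without a brain library (both adjusted p = 0.183). In TERM heart FL vs. VGC of miR-124-3p was 0.80 without mismatched pools (edgeR adjusted p = 0.763) but 4.60 in pools without a brain library (adjusted p = 0.440), a set that holds FL mouse 1. The differences of miR-137-3p were -4.03 in LAR GAT, -3.49 in LAR kidney and -4.56 in TERM lung in pools without a brain library, a set that holds the 3 highest libraries named above, and -0.88, -0.64 and 0.21 without mismatched pools, with 0 of these past the threshold.

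Age outside brain gave 0 of 72 calls in LAR (0.0785% of 11468 tests) and 2 of 66 in TERM (1.46% of 10648), both in MAT. miR-137-3p was 1.90 to 96.8 CPM (median 14.7) in 14 MAT libraries of 8 months and 3.86 to 182 CPM (median 125) in 15 of 3 months. miR-9-5p was 23.5 to 386 CPM (81.6) and 7.60 to 711 CPM (266). Both groups overlapped. The difference between 8 and 3 months was -2.64 for miR-137-3p (edgeR adjusted p = 0.00361) and -1.81 for miR-9-5p (0.0129), and both still passed without the highest library (-2.34 and -1.68). Without mismatched pools both passed as well (edgeR adjusted p = 0.000189 and 0.000802), in a setting where 3 of 66 tests passed in TERM (1.72% of all) and 2 of 72 in LAR (1.25%). In pools without a brain library neither passed, with -3.20 (edgeR adjusted p = 0.102) and -2.26 (adjusted p = 0.139). Of the older MAT libraries 8 of 14 were in pools with a brain library and 1 in mismatched pools, and of the younger 4 of 15 and 7, and the part of this in the result was not tested.

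Some miRNAs had tissue profiles much like those of the 6, over 26 medians (13 tissues in each extraction) and among 433 miRNAs above 10 CPM in brain. The nearest to miR-124-3p were miR-544-3p (r = 0.98), miR-384-5p (0.96) and miR-376a-5p (0.96). miR-9-5p was most like its own other strand (0.99) and then miR-219a-2-3p (0.93), and nearest to miR-137-3p miR-219a-5p (0.87). miR-129-5p was nearest to miR-410-3p and miR-380-3p (both 0.93), and miR-128-3p to miR-181c-3p (0.86). The lowest likeness between members was lower than any of these, at 0.52 for miR-128-3p and miR-137-3p, whose second tissues were thymus and liver. The tissues share pools and totals, so these values are descriptions.

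Rows of similar name were close to 0 in brain. miR-124b-3p had a median of 0.221 CPM (0 to 0.991), miR-9b-5p 0.462 CPM (0 to 1.51) and miR-9b-3p 0.173 CPM (0 to 0.730), and miR-129b-5p and miR-129b-3p were at 0 in 21 of 25 libraries each. In the table of long noncoding RNA counts, transcripts of 2 hairpin hosts held almost exactly the counts of the mature miRNA in every brain library. Those of Mir124a-1hg summed to 100.1% to 100.4% of the miR-124 counts, and those of C130071C03Rik to 100.2% to 102.1% of the miR-9 counts. In that table the levels of these 2 hosts therefore cannot be told apart from those of the mature miRNAs. Mir124-2hg held 1.16% to 59.0% of the miR-124 counts (median 7.76%) and Mir9-3hg 0% to 0.703% of those of miR-9.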

How the data were processed

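Small RNA libraries (MGI kit, 16 samples to a pool) were made by the authors from total RNA, and the miRNA counts were produced by the authors with miRMaster against GRCm39 and miRBase. The deposited table holds raw counts per mature miRNA and library. They are estimated counts, since reads that match several miRNAs were divided, and 0.790% of the deposited counts have a fraction. They were rounded to whole numbers for tests. The members and lists were chosen with earlier results of these data known. Groups came from the sample titles, and pools and plates (44 pools on 8 plates) from the study's sample sheet.

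CPM were computed as counts per 1000000 miRNA counts. A miRNA was tested where 10% or more of an arm's libraries held 5 reads or more. Tests were run with edgeR 4.0.16 (R 4.3.3, TMM factors, quasi-likelihood test, Benjamini-Hochberg adjustment over all miRNAs tested, threshold 0.05). In brain the arms were compared in LAR and TERM separately, with age in months as a covariate in TERM. Brain was set against the mean of 12 tissues with arm as a covariate. Ratios of strands had 0.5 added to each count and were compared by exact permutation tests, also for TERM against LAR. Neighbouring tissues and pools were compared by permutation over libraries or pools on log2(CPM + 1). A library's nearest tissue was that of the highest correlation with tissue profiles over 718 miRNAs without the members. Alternatives were DESeq2 1.42.0, library size alone, other filters, totals over 6 RNA classes (piRNA left out), leaving out each brain library, mouse number as a block and leaving out mismatched pools. Sets without a brain library in the pool, without the libraries that stand apart and without the highest library were added after seeing the data. Scripts were tested on simulated data.

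The miRNAs named were the 6 members, their opposite strands, rows of similar name, markers of other cells and tissues and, for likeness, the 3 nearest profiles above 10 CPM in brain. Other brain-enriched miRNAs are given as counts. Mouse numbers did not pair animals: deviations of same-numbered mice correlated at a median of -0.154 in LAR (12 pairs) and -0.094 in TERM (11 pairs). Sequences were matched by name in RefSeq, which also gave the hairpin positions, and the genes around them came from GENCODE. Both are on GRCm38.p6 and not on the build of the counts, and no coordinate was moved between builds. The labels and the study's methods differ on the anaesthetic of LAR mice. Depth limits the opposite strands and the traces outside brain, where a few counts set a value.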

Additional observations from a re-analysis of the deposited data

Results flagged for a closer look

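Of 66 sets of 4 or 5 brain libraries looked at, 4 held a library set apart from the rest of its group by Dixon's test at the 95% level. Chance alone flags about 1 in 20 groups, so 4 of 66 is near that share. In FL LAR, mouse 17 had a log2 ratio of miR-124-3p to miR-124-5p of 12.82, with the other 3 libraries at 11.08 to 11.27. In FL TERM, mouse 8 held 3291 CPM of miR-137-3p and the others 1283 to 1554 CPM. In HGC LAR, mouse 1 held 8751 CPM of miR-128-3p and the others 2108 to 3056 CPM. In the same group, mouse 17 had a log2 ratio of miR-128-3p to its -5p strands of 4.60, with the others at 8.82 to 9.66. None of these 4 libraries was among those whose profile stood apart.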

How the results depend on the processing

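In brain, 0 of the 6 miRNAs passed between arms within LAR and within TERM under every alternative run, DESeq2, the replicate block by mouse number (0 calls) and each left-out library included. Between TERM and LAR 0 passed under the 8 alternatives run, with no block and no left-out library among them, and the interaction was fitted once. For age in TERM brain DESeq2 gave 1 call, miR-124-3p, and the other alternatives 0. All 6 stayed higher in brain than elsewhere with library size alone, against the next highest tissue, without mismatched pools, in pools without a brain library and with mice of 3 months alone, and other alternatives were not run for this. Outside brain, member calls between arms went from 10 in LAR to 0 without mismatched pools, 0 in pools without a brain library and 0 without the highest library, and from 10 in TERM to 2, 2 and 0. DESeq2 gave 8 and 14 (over all miRNAs 446 of 34122 and 218 of 33978 tests), library size alone 10 and 13 (333 of 34404 and 220 of 34050), and filterByExpr 8 and 11 (175 of 18768 and 116 of 18642). Age calls outside brain went in LAR from 0 to 2 without mismatched pools, and in TERM from 2 to 1 with library size alone and to 0 in pools without a brain library. Neighbouring pairs of tissues that differed rose from 15 to 20 without mismatched pools and to 29 with levels scaled to the counts over 6 RNA classes, where 7 of the 29 were in the reverse order. Some calls outside brain changed sign. miR-9-3p in LAR BAT (FL vs. HGC) went from -3.98 to 0.18 by DESeq2, 0.67 in pools without a brain library, 0.048 without mismatched pools and 0.23 without its highest library. Without mismatched pools, miR-9-5p in LAR pancreas (FL vs. VGC) was -0.15 and miR-137-3p in TERM lung (FL vs. HGC) 0.21. The cause of these changes was not tested.

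Over all miRNAs, DESeq2 called 6 between arms in LAR brain, 5 in TERM brain and 17 for age, where edgeR called 0. Without a filter edgeR called 28 between arms in TERM brain and 38 for age, over 6 classes 5 for age, and 10 and 2 for age without FL mouse 18 and HGC mouse 17. TERM against LAR brain gave 8 calls, and 15 to 23 under the alternatives that moved it, with a median shift of -0.60 over 6 classes. Outside brain the calls between arms fell from 307 in LAR to 175 with filterByExpr, 48 in pools without a brain library and 62 without mismatched pools, and from 157 in TERM to 4 without mismatched pools. Those for age went in LAR from 9 to 18 with library size alone, 1 in pools without a brain library and 131 without mismatched pools, and in TERM from 155 to 2 in pools without a brain library. Brain arms held 4 or 5 libraries each, which limits what these tests can detect. Of 942 brain differences compared with an alternative, 125 that were not called took another sign, and the cause was not tested.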
